A study of Mus musculus with 8 samples.

Results

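The lysosomal genes described here are 47 symbols of hydrolases, their activators, lysosomal membrane proteins, subunits of the vacuolar proton pump and 2 transcription factors of lysosomal genes, taken by exact match to the gene column of a table of 10639 genes. All 47 were in the table, and all 47 passed the filter for testing (FPKM 1 or more, reached in 2 or more libraries), as did 10289 genes in all. By role they were 9 proteases, 12 enzymes that act on glycans, 7 genes grouped as lipid enzymes or activators, 6 membrane proteins, 11 proton pump subunits and the 2 factors Tfeb and Tfe3. The cells were RAW264.7, a mouse macrophage-like line labelled wild type. RNA sequencing covered 4 groups of 2 libraries, and the study asked how expression differs between them. The groups were LPS plus anti-CD36 antibodies for 12 h with no doses in the labels, LPS at 50 ng/mL for 12 h, anti-CD36 antibodies at a dilution of 1 in 100 for 12 h, and untreated cells. LPS is the bacterial lipopolysaccharide sensed through Tlr4, and CD36 is a scavenger receptor for lipids. The labels give no control antibody, so an effect of anti-CD36 cannot be told apart from an effect of adding antibody.

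Lysosomes are acidic organelles in which hydrolases break down proteins, glycans and lipids delivered by endocytosis, phagocytosis and autophagy. Most soluble hydrolases are carried there by receptors for mannose 6-phosphate, and a proton-pumping ATPase, with a V0 sector in the membrane and a V1 sector that hydrolyses ATP in the cytosol, keeps the lumen acid. Tfeb and Tfe3 are related factors that bind E-box elements in promoters of many lysosomal genes when they are in the nucleus. In macrophages the same organelle degrades engulfed particles and cuts proteins for antigen presentation.

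Depth, recovered from the steps that single reads leave in low FPKM values, was about 47900000 to 71700000 reads per library. By exon length, 319 to 117689 reads stood behind a member's value. FPKM, fragments per kilobase of transcript scaled to the library, allows levels of different genes to be compared. The 7 macrophage markers in the table of 9 listed (Mertk and C1qa were not among them) summed to an FPKM of 2382 and 2102 with LPS plus anti-CD36, 2864 and 2637 with LPS, 4173 and 4639 with anti-CD36, and 3682 and 3165 untreated. Lyz2, the macrophage lysozyme, made up most of each sum, and the markers moved apart, with 2 of 7 called higher and 2 lower in LPS-treated against untreated cells by the limma test used for the members. Adgre1, the macrophage surface protein F4/80, was at 82.8 and 84.1 with LPS, against 13.8 and 12.2 untreated, and Itgam was also called higher. Csf1r, the receptor for macrophage colony-stimulating factor, was at 102 and 104, against 311 and 306, and Spi1 was also called lower. Of 25 listed markers of other cell types 4 were in the table (Csf3r, Cd79b, Lck and Fscn1), and they summed to between 5.69 and 12.4 in any library. The 2 anti-CD36 libraries stood apart from each other. In replicate 1 of that group the 13 mitochondrial genes took 15.7% of all FPKM, and in its replicate 2 they took 6.59%, beside 3.28% to 6.62% in the other 6 libraries.

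Promoters are shown for the 4 glycan-degrading enzymes with the largest falls in LPS-treated cells, since this group had the most calls in a single direction, and for Lamp1, which was chosen after its motifs had been counted. The windows are 300 bases long, 250 before to 50 after the RefSeq gene start on the gene's strand (GRCm38.p6). Capitals mark the E-box core CACGTG, the centre of the element that Tfeb and Tfe3 bind. The windows lie at chr13:93771429-93771728 on the plus strand for Arsb, chr8:85083019-85083318 plus for Man2b1, chr11:119355461-119355760 minus for Sgsh, chr9:114400828-114401127 plus for Glb1 and chr8:13158911-13159210 plus for Lamp1.
Arsb: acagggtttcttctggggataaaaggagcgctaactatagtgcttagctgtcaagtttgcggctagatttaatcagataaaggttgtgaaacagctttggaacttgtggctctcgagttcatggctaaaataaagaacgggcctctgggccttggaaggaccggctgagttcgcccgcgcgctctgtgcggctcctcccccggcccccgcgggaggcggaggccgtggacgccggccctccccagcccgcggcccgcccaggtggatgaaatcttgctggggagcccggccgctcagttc
Man2b1: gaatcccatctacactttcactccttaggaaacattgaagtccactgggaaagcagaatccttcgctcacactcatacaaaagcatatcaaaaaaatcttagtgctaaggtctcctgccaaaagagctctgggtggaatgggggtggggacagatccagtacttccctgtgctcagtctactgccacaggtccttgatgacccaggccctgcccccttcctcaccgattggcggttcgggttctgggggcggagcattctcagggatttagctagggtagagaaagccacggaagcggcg
Sgsh: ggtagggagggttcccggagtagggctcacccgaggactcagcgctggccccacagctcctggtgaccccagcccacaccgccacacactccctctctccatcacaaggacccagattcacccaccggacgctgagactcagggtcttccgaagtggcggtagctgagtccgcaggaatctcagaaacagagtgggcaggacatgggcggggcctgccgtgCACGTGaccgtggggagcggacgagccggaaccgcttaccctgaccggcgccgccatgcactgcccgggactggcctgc
Glb1: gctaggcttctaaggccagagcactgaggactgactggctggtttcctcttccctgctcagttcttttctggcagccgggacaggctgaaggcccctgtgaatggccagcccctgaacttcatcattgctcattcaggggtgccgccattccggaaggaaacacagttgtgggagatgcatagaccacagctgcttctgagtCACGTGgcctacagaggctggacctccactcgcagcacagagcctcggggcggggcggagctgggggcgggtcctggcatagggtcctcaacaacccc
Lamp1: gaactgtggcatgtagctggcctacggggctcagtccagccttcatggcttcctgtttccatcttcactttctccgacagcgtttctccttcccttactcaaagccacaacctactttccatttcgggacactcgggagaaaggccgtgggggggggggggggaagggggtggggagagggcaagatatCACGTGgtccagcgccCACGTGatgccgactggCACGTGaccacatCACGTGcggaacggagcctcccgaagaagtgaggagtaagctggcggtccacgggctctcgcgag

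The core stood once in the Sgsh window, with its first base 29 bases before the start, and once in Glb1, at 48 bases before it. Lamp1 had 4, at 61, 45, 28 and 15 bases before the start, and the Arsb and Man2b1 windows had none. Of the 41 members with a window, 14 (34.1%) held CACGTG on either strand, which reads the same on both, against 7.15% of all 32851 windows and 12.2% of the 8317 genes of the table with a window. The longer form TCACGTG, which contains the core and was searched on both strands, was in 13 of 41 members (31.7%), against 7.44% of the 8317 genes of the table and 3.77% of all windows. CACGTG was in 5 of 18 members that fell with LPS, 2 of 10 that rose and 7 of 13 that were not called. No window was matched for Ctsb, Ctsh, Asah1, Atp6v1b2, Atp6v1c1 and Atp6v1h. A match describes letters in these windows and shows no binding.

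LPS raised some lysosomal genes and lowered others, and no member was called between LPS plus anti-CD36 and LPS. A gene was called at a limma adjusted p (Benjamini-Hochberg over all genes tested) under 0.05, and differences are on the log2(FPKM + 1) scale. With LPS against untreated cells, 12 of 47 members were called higher, where 17.0% of all genes were, and 19 lower, where 37.5% were. Together that is 31 members against 54.6% of all genes. The median member difference was -0.09, and that of all genes -0.19. In bulk RNA, fewer cells that express a gene and less RNA of it per cell cannot be told apart.

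In cells that also had the antibody, LPS gave a similar split. LPS plus anti-CD36 against anti-CD36 had 10 members higher (15.4% of all genes) and 16 lower (31.7%), 26 in all against a background of 47.1%. LPS plus anti-CD36 against untreated cells had 12 higher (17.3%) and 18 lower (41.8%), or 30 against a background of 59.1%. The member medians were -0.07 and -0.16, beside -0.15 and -0.23 for all genes. LPS plus anti-CD36 against LPS called 0 members where 1.78% of all genes were called, and anti-CD36 against untreated called 1 lower (Galc) and 0 higher, where 13.7% of all genes were called, 10.6% lower and 3.04% higher.

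The summed FPKM of the members was 3365 and 3210 with LPS plus anti-CD36, 3199 and 3123 with LPS, 3675 and 3548 with anti-CD36, and 3579 and 3378 in untreated cells. As a share of all FPKM in the table these sums were 0.951% and 0.933%, 0.961% and 0.964%, 1.14% and 1.07%, and 1.22% and 1.21%, in the same order of groups. The share was lower in all 4 libraries with LPS than in all 4 without it. The glycan enzymes accounted for 281 and 281 FPKM with LPS, against 455 and 433 untreated, and the membrane proteins for 418 and 398, against 745 and 732. Proteases went the other way, at 1653 and 1596 with LPS, against 1372 and 1244 untreated. These sums are descriptions, with no test.

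**Figure D1:**
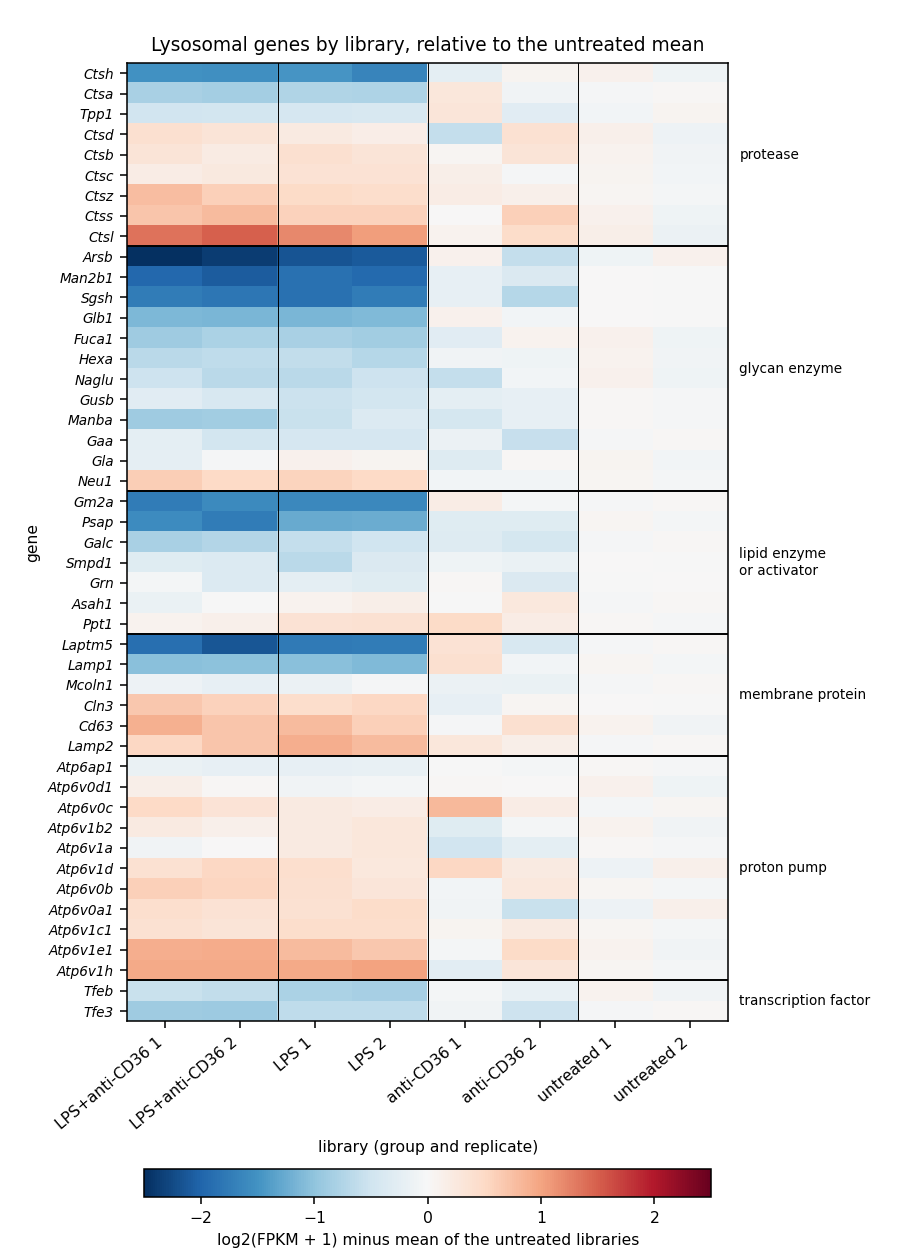
Level of each of the 47 genes in each library, as log2(FPKM + 1) minus the mean of the untreated libraries (colour), in rows by role and in columns by group and replicate. The 4 libraries with LPS look alike, with blue blocks led by Arsb, Man2b1, Sgsh, Gm2a, Ctsh and Laptm5 and red ones led by Ctsl, Atp6v1h and Lamp2, while the 2 anti-CD36 columns differ from each other.

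Most enzymes that break down glycans were lower in LPS-treated cells: 9 of 12 fell, 1 rose (Neu1) and 2 were not called (Gaa and Gla). Among all genes 37.5% were called lower and 17.0% higher. Arsb, the sulfatase that removes sulfate from dermatan and chondroitin sulfate (chr13:93771630-93943016, plus strand, GRCm38), was at an FPKM of 10.0 and 10.6 with LPS, against 44.7 and 52.6 in untreated cells, which is -2.13 ± 0.21 (log2 difference ± SE, limma adjusted p = 0.00019). Man2b1, the acid alpha-mannosidase (chr8:85083270-85098282, plus strand), was at 4.76 and 4.45 with LPS, against 20.1 and 19.7 untreated (-1.90 ± 0.11, limma adjusted p = 1.5e-05). Sgsh, which removes N-linked sulfate from heparan sulfate (chr11:119343425-119355536, minus strand), was at 1.24 and 1.45 with LPS, against 7.32 and 7.12 untreated (-1.81 ± 0.16, limma adjusted p = 0.00010). In these 3 genes the LPS and untreated libraries were far apart, and each group's libraries were close together. Glb1, the beta-galactosidase, was at 7.10 and 7.38 with LPS, against 17.1 and 16.9 untreated (-1.13 ± 0.10, limma adjusted p = 0.00012).

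The other 5 falls in this group were smaller. Fuca1, which removes fucose, fell by 0.85, Hexa, the alpha subunit of beta-hexosaminidase, by 0.66, Naglu, a heparan sulfate enzyme, by 0.59, Gusb, the beta-glucuronidase, by 0.50 and Manba, the beta-mannosidase, by 0.45 (log2, SE 0.11 to 0.18, limma adjusted p = 0.0022 to 0.0266). Neu1, the lysosomal sialidase, was at 42.7 and 40.8 with LPS, against 29.6 and 27.5 untreated, and rose by 0.53 ± 0.10 (limma adjusted p = 0.0039). Gaa, which breaks down glycogen, stood at 20.93 and 21.01 with LPS, against 27.8 and 29.1 untreated, and narrowly missed the threshold (-0.42 ± 0.16, limma adjusted p = 0.051). Gla, the alpha-galactosidase A, differed by 0.08 ± 0.15. The call of Naglu was lost without either LPS or either untreated library, that of Manba without LPS replicate 1 or either untreated library, and that of Gusb without LPS replicate 1 or untreated replicate 1.

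With the antibody present, Arsb was at 7.83 and 8.55 with LPS plus anti-CD36, against 52.6 and 32.0 with anti-CD36 alone (-2.19 ± 0.21, limma adjusted p = 0.00018). Man2b1 was at 4.34 and 3.97, against 17.2 and 15.3 (-1.74 ± 0.11, limma adjusted p = 2.0e-05), and Sgsh at 1.45 and 1.35, against 6.10 and 4.03 (-1.32 ± 0.16, limma adjusted p = 0.00052). In all 3 the LPS plus anti-CD36 libraries lay below both anti-CD36 libraries. LPS plus anti-CD36 against anti-CD36 called 31.7% of all genes lower and 15.4% higher. Of the 12 glycan enzymes 7 fell and 1, Neu1, rose in this comparison, and of these only Manba lost its call without a library, LPS plus anti-CD36 replicate 1. In LPS plus anti-CD36 against untreated cells 9 fell and 1 rose, beside 41.8% and 17.3% of all genes. The calls of Gusb and Naglu were lost when LPS plus anti-CD36 libraries or untreated ones were left out singly, and that of Gusb also without either LPS library. Arsb stood at -2.43 ± 0.21 (limma adjusted p = 8.5e-05), Man2b1 at -2.02 ± 0.11 (8.9e-06) and Sgsh at -1.78 ± 0.16 (9.4e-05).

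**Figure D2:**
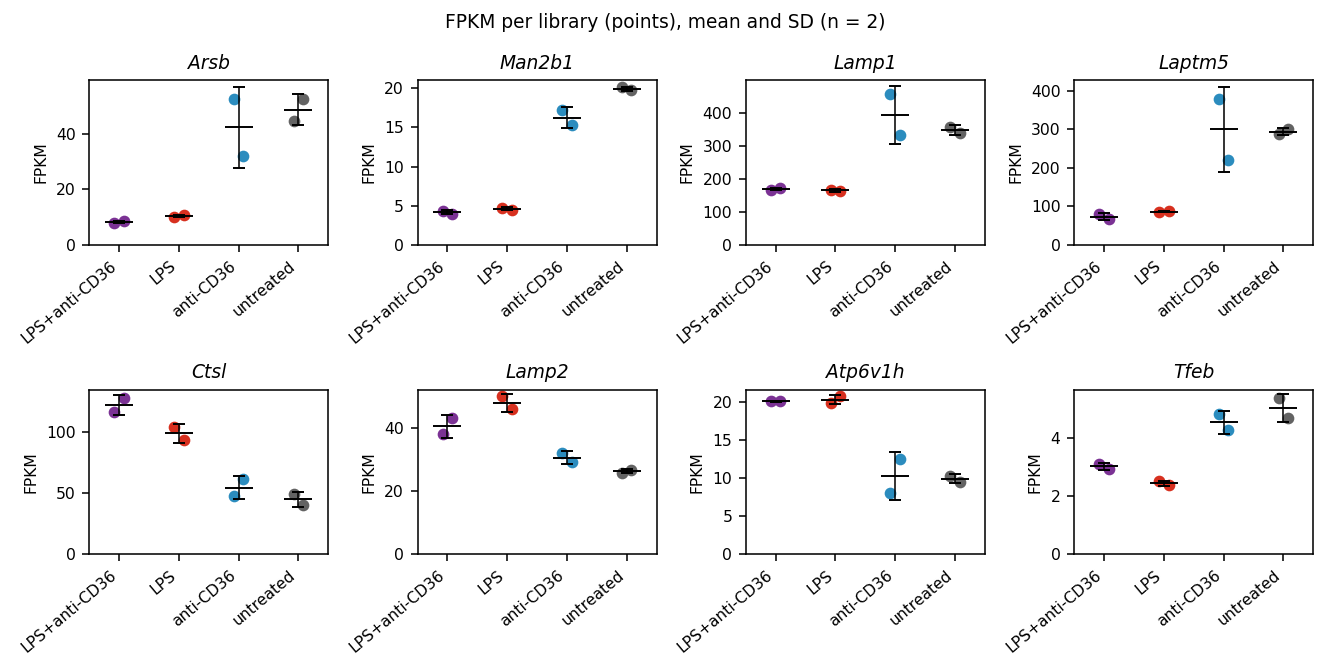
FPKM of 8 genes in each library (points) by group, with the mean (bar) and SD (whiskers, n = 2), on axes that start at 0. Arsb, Man2b1, Lamp1, Laptm5 and Tfeb lie lower and Ctsl, Lamp2 and Atp6v1h higher in the 4 libraries with LPS than in the 4 without, with no overlap.

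Of the 7 genes grouped as lipid enzymes or activators, 4 were lower in LPS-treated cells and 1, Ppt1, was higher. Among all genes 37.5% were called lower and 17.0% higher. The 4 that fell (Gm2a, Psap, Galc and Smpd1) act in sphingolipid breakdown, as does Asah1, while Ppt1 and Grn have other roles. Gm2a, the activator that presents GM2 ganglioside to beta-hexosaminidase, was at 10.2 and 10.2 with LPS, against 32.4 and 34.2 untreated (-1.61 ± 0.12, limma adjusted p = 4.5e-05). Psap, the precursor of the saposins that help sphingolipid enzymes reach their substrates, was at 111 and 113, against 277 and 261 (-1.26 ± 0.12, limma adjusted p = 0.00017). Galc, the galactosylceramidase and the least abundant member in untreated cells, was at 1.18 and 1.33, against 2.23 and 2.32 (-0.54 ± 0.10, limma adjusted p = 0.0024), and Smpd1, the acid sphingomyelinase, fell by 0.52, a call lost without LPS replicate 1 or either untreated library. These activators and enzymes separated the LPS and untreated libraries without overlap. Ppt1, which removes palmitate from proteins, was at 77.6 and 78.7 with LPS, against 61.6 and 58.7 untreated (0.37 ± 0.13, limma adjusted p = 0.043), and that call was lost without any of the LPS, untreated or LPS plus anti-CD36 libraries. Asah1, the acid ceramidase (0.12), and Grn, progranulin (-0.27), were not called. Under other scalings, Smpd1 lost its call with quantile normalization, median-ratio size factors or the trend on gene length removed. Ppt1 lost its call with quantile normalization or with mitochondrial genes left out. The group had 2 higher and 3 lower with size factors or without the length trend. It had 0 and 3 with quantile normalization, and 0 and 4 with mitochondrial genes left out.

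In antibody-treated cells, LPS lowered Gm2a to 9.22 and 10.4, against 37.8 and 32.2 with anti-CD36 alone (-1.73 ± 0.12, limma adjusted p = 3.2e-05), and Psap to 89.1 and 78.9, against 217 and 217 (-1.36 ± 0.12, limma adjusted p = 0.00013). Galc fell by 0.40 ± 0.10, a call lost without LPS plus anti-CD36 replicate 1. Smpd1 and Ppt1 were not called there, at -0.18 ± 0.12 and -0.23 ± 0.13. In LPS plus anti-CD36 against untreated cells, Gm2a and Psap both stood at -1.67 ± 0.12 (limma adjusted p = 3.1e-05 and 3.8e-05) and Galc at -0.78 ± 0.10. These 3 of 7 were called lower with 0 higher, beside 41.8% and 17.3% of all genes.

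Proteases split, and in the values as deposited most of the called ones were higher in LPS-treated cells. With quantile normalization 2 were higher and 2 lower, and with mitochondrial genes left out 1 was higher and 3 were lower. Of 9 as deposited, 4 rose (Ctsl, Ctss, Ctsz and Ctsc), 2 fell (Ctsh and Ctsa) and 3 were not called (Ctsb, Ctsd and Tpp1). Among all genes 17.0% were called higher and 37.5% lower. Ctsl, the cysteine protease cathepsin L (chr13:64359337-64370890, minus strand), was at 104 and 93.0 with LPS, against 49.1 and 40.4 untreated, which is 1.13 ± 0.16 higher on the log2 scale (limma adjusted p = 0.00098). Ctss, cathepsin S, which trims the invariant chain of MHC class II molecules, was at 383 and 380, against 277 and 236 (0.57 ± 0.21, limma adjusted p = 0.048). Ctsz, a cysteine carboxypeptidase and the most abundant member in untreated cells, was at 527 and 510, against 393 and 365 (0.45 ± 0.15, limma adjusted p = 0.034), but stood at -0.04 after quantile normalization. Ctsc, the dipeptidyl peptidase that activates granule serine proteases, rose by 0.36. With mitochondrial genes left out, Ctss, Ctsz and Ctsc were not called. Ctss and Ctsz were also not called with quantile normalization, nor Ctsz with the trend on gene length removed. The calls of Ctss, Ctsz and Ctsc were lost without either LPS or either untreated library, and those of Ctss and Ctsz also without either LPS plus anti-CD36 library.

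In the other direction, Ctsh, a cysteine aminopeptidase, was at 2.62 and 2.20 with LPS, against 9.87 and 8.26 untreated (-1.56 ± 0.14, limma adjusted p = 0.00012). Ctsa, the carboxypeptidase that shields Glb1 and Neu1 in a complex, was at 108 and 108, against 181 and 186 (-0.76 ± 0.15, limma adjusted p = 0.0038). Of the 3 genes of that complex, 2 fell and Neu1 rose. Ctsd, the aspartic protease, was at 166 and 159 with LPS, against 154 and 130 untreated (0.20 ± 0.28), Ctsb, an abundant cysteine protease, differed by 0.36 ± 0.16 and Tpp1, a tripeptidyl peptidase, by -0.42 ± 0.18.

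With LPS plus anti-CD36, Ctsl was at 116 and 127, against 47.6 and 61.2 with anti-CD36 alone (1.16 ± 0.16, limma adjusted p = 0.0011) and against the untreated libraries by 1.43 ± 0.16 (limma adjusted p = 0.00028). Ctsh was at 2.52 and 2.48, against 7.48 and 9.54 (-1.44 ± 0.14, limma adjusted p = 0.00020). Ctsl and Ctsz rose and Ctsh and Ctsa fell in both of these comparisons. In both, Ctsz was not called with quantile normalization or with mitochondrial genes left out. Against untreated cells it was also not called without untreated replicate 2. Ctss was at 415 and 445, against 259 and 388 with anti-CD36 (0.44 ± 0.21, not called), and was called against untreated cells (0.75 ± 0.21, limma adjusted p = 0.0167), though not without untreated replicate 2 or either LPS plus anti-CD36 library. The call of Ctsz against anti-CD36 (0.52 ± 0.15) was lost without either LPS plus anti-CD36 library, either LPS library or untreated replicate 2.

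Membrane proteins moved in both directions, and the 2 LAMP proteins did so against each other. Lamp1 and Lamp2 are the heavily glycosylated proteins that coat the inner face of the lysosomal membrane, and Lamp2 also serves chaperone-mediated autophagy. Lamp1 (chr8:13159161-13175338, plus strand) was at 168 and 162 with LPS, against 358 and 338 untreated (-1.08 ± 0.17, limma adjusted p = 0.0015). Lamp2 (chrX:38401357-38456454, minus strand) was at 50.2 and 46.0, against 25.9 and 26.8 (0.84 ± 0.12, limma adjusted p = 0.00080). Both calls held under each of the 4 other scalings and without any 1 library. Lamp1 stayed the more abundant of the pair by FPKM in each library.

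Laptm5, a membrane protein of blood cells that takes part in lysosomal sorting of receptors, was at 85.6 and 87.2 with LPS, against 288 and 300 untreated (-1.75 ± 0.24, limma adjusted p = 0.00072). Cd63, a tetraspanin of late endosomes and lysosomes, was at 96.8 and 84.4, against 58.8 and 52.2 (0.70 ± 0.17, limma adjusted p = 0.012), and Cln3, the protein mutated in juvenile Batten disease, at 11.4 and 12.1, against 8.25 and 8.18 (0.47 ± 0.12, limma adjusted p = 0.011). Cd63 was not called without LPS replicate 1 or untreated replicate 2, nor Cln3 without either LPS or either untreated library. Mcoln1, the calcium channel that acts upstream of Tfeb, was at 6.07 and 6.69 with LPS, against 6.63 and 7.03 untreated (-0.09 ± 0.10, limma adjusted p = 0.49), and the other treated groups differed from untreated by -0.16 each, while LPS plus anti-CD36 stood at 6.21 and 5.81, against 6.09 and 5.93 with anti-CD36.

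The same 5 membrane genes were called in the same directions in LPS plus anti-CD36 against anti-CD36, where 47.1% of all genes were called. Laptm5 was at 79.2 and 66.0, against 378 and 221 (-1.99 ± 0.24, limma adjusted p = 0.00049), and Lamp1 at 167 and 171, against 457 and 333 (-1.20 ± 0.17, limma adjusted p = 0.0011). Cln3 was at 13.7 and 12.7, against 7.001 and 8.52 (0.70 ± 0.12, limma adjusted p = 0.0023), Cd63 at 103 and 90.7, against 54.1 and 73.9 (0.61 ± 0.17, limma adjusted p = 0.024), and Lamp2 at 38.1 and 43.3, against 32.3 and 29.2 (0.39 ± 0.12, limma adjusted p = 0.028). The libraries of the 2 groups did not overlap in any of the 5. The call of Cd63 was lost without either LPS plus anti-CD36 library, and that of Lamp2 without LPS plus anti-CD36 replicate 2 or any LPS or untreated library. Against untreated cells the 3 rises were 0.79 ± 0.17 for Cd63 (limma adjusted p = 0.0059), 0.62 ± 0.12 for Cln3 and 0.61 ± 0.12 for Lamp2, and Laptm5 stood at -2.01 ± 0.24 (limma adjusted p = 0.00033).

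**Figure D3:**
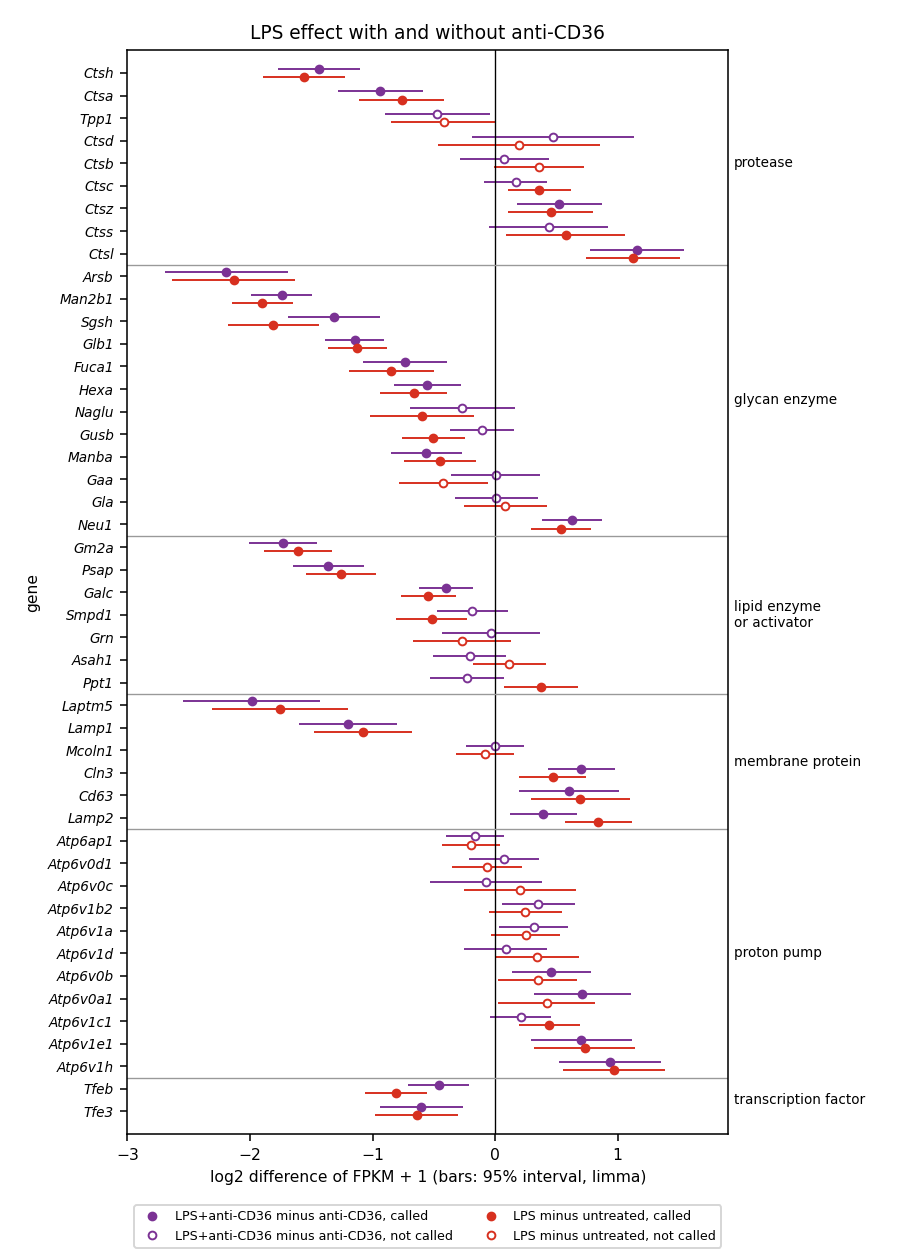
LPS effect on each gene as a log2 difference of FPKM + 1 with its 95% interval (limma), in antibody-treated cells (purple, LPS plus anti-CD36 minus anti-CD36) and in cells without antibody (red, LPS minus untreated), with filled points for called genes. The effects run from -2.19 and -2.13 for Arsb to 1.16 and 1.13 for Ctsl, and 24 genes have both points filled.

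No proton pump subunit was called lower in the values as deposited, though 1 was with mitochondrial genes left out. Of 11, 3 rose in LPS-treated cells and 8 were not called, beside 17.0% of all genes called higher and 37.5% lower. The called ones belong to the V1 sector. The V0 subunits Atp6v0b and Atp6v0a1 missed the threshold, but were called higher with quantile normalization, median-ratio size factors or the trend on gene length removed. Atp6v1h, a regulatory subunit, was at 19.9 and 20.7 with LPS, against 10.3 and 9.47 untreated (0.97 ± 0.18, limma adjusted p = 0.0029). Atp6v1e1, of the peripheral stalk, was at 29.2 and 26.5, against 17.5 and 15.3 (0.73 ± 0.18, limma adjusted p = 0.0102), a call lost without LPS replicate 1 or untreated replicate 2. Atp6v1c1, which joins the stalk to the membrane sector, rose by 0.44, a call lost without either LPS library or untreated replicate 2. The 8 others lay between -0.20 (Atp6ap1, an accessory subunit) and 0.42 (Atp6v0a1, of the proton path), with the ring subunits Atp6v0b at 0.35 and Atp6v0c at 0.20 and the catalytic-head subunits Atp6v1a and Atp6v1b2 at 0.25 each.

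The count of pump subunits differed with the scaling of the libraries, as did the median of all genes. That median was -0.19 with LPS as deposited, 0.01 with median-ratio size factors and -0.04 after quantile normalization. It was 0.01 with the trend on gene length removed and -0.38 with mitochondrial genes left out and the rest rescaled. Whether the median accounts for the counts was not tested. In the same order of settings the pump had 3, 8, 6, 8 and 2 subunits higher, and 0, 0, 0, 0 and 1 (Atp6ap1) lower. Atp6v1h and Atp6v1e1 were higher under all of them. Across all members the calls were 12 higher and 19 lower as deposited, 19 and 14 with size factors, 12 and 17 with quantile normalization, 18 and 16 without the length trend, and 6 and 22 without mitochondrial genes. In that order 54.6%, 52.3%, 53.3%, 54.3% and 59.8% of all genes were called. LPS plus anti-CD36 against untreated cells had 12 higher and 18 lower as deposited, 18 and 16 with size factors, 12 and 17 with quantile normalization, 19 and 15 without the length trend, and 6 and 26 without mitochondrial genes. The shares of all genes called were 59.1%, 57.2%, 55.3%, 54.9% and 66.0%. LPS plus anti-CD36 against anti-CD36 had, in the same order, 10 and 16, 14 and 14, 11 and 14, 15 and 14, and 6 and 20. There 47.1%, 45.8%, 44.5%, 48.0% and 52.1% of all genes were called. Rises outnumbered falls without the length trend in all 3 of these comparisons, and falls outnumbered rises as deposited. With LPS against untreated, 6 to 10 glycan enzymes were lower and 1 higher under these settings, with Gaa added when mitochondrial genes were left out and Manba, Gusb or Naglu lost under the others, while proteases ranged from 5 higher and 2 lower to 1 higher and 3 lower. Under all 4 other scalings of LPS against untreated, 6 rises (Ctsl, Atp6v1e1, Cd63, Neu1, Atp6v1h and Lamp2) and 14 falls stayed called.

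With LPS plus anti-CD36, 4 pump subunits rose against anti-CD36 alone, where 15.4% of all genes were called higher. Atp6v1h was at 20.1 and 20.1, against 8.04 and 12.5 (0.93 ± 0.18, limma adjusted p = 0.0042), Atp6v0a1 at 14.2 and 13.7, against 9.76 and 6.70 (0.71 ± 0.17, limma adjusted p = 0.0112), and Atp6v1e1 at 31.7 and 32.2, against 15.8 and 23.3 (0.70 ± 0.18, limma adjusted p = 0.014). Atp6v0b rose by 0.46. Against untreated cells 5 rose, where 17.3% of all genes were called higher. These were Atp6v1h (0.95 ± 0.18, limma adjusted p = 0.0027), Atp6v1e1 (0.92 ± 0.18, 0.0032), Atp6v0b (0.56 ± 0.14), Atp6v1d of the rotor stalk (0.45 ± 0.14) and Atp6v1c1 (0.35 ± 0.11). The calls of Atp6v1e1, Atp6v0a1 and Atp6v0b against anti-CD36 were lost without either LPS plus anti-CD36 library, that of Atp6v0b also without any LPS or untreated library, and the other scalings gave 2 to 7 subunits higher there and 2 to 9 against untreated cells. With mitochondrial genes left out, 1 subunit was lower against anti-CD36 and 2 against untreated cells. Against untreated cells, Atp6v0b was not called without LPS plus anti-CD36 replicate 1 or untreated replicate 2, nor Atp6v1d and Atp6v1c1 without either LPS plus anti-CD36 or either LPS library or without untreated replicate 1, Atp6v1c1 also without untreated replicate 2.

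The transcripts of both transcription factors were lower in LPS-treated cells. Tfeb (chr17:47737030-47792419, plus strand) was at 2.51 and 2.37 with LPS, against 5.38 and 4.71 untreated (-0.81 ± 0.11, limma adjusted p = 0.00065), and Tfe3 (chrX:7762560-7775202, plus strand) at 9.16 and 9.20, against 14.5 and 15.2 (-0.64 ± 0.14, limma adjusted p = 0.0073). With the antibody, Tfeb was at 3.11 and 2.95 with LPS plus anti-CD36, against 4.84 and 4.27 with anti-CD36 (-0.46 ± 0.11, limma adjusted p = 0.0103), and Tfe3 at 7.54 and 7.399, against 13.9 and 10.1 (-0.60 ± 0.14, limma adjusted p = 0.0113). The groups did not overlap in any of these. With size factors Tfe3 was not called with LPS against untreated, and neither factor was called in LPS plus anti-CD36 against anti-CD36. There Tfeb was also lost with quantile normalization, without the length trend and without LPS plus anti-CD36 replicate 2, and Tfe3 without either LPS plus anti-CD36 library. Against untreated cells, LPS plus anti-CD36 gave -0.58 ± 0.11 for Tfeb (limma adjusted p = 0.0027) and -0.91 ± 0.14 for Tfe3 (0.0013). That call of Tfeb was lost with quantile normalization and without the length trend. Anti-CD36 alone gave -0.12 ± 0.11 for Tfeb and -0.30 ± 0.14 for Tfe3, neither called. Their activity, which is set largely by phosphorylation and entry into the nucleus, was not measured.

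The LPS effects with and without antibody share no library in their group means. Both use 1 estimate of each gene's spread over all 8 libraries, so their calls are not independent. Between these effects, 24 members were called in the same direction and 0 in opposite ones. These are 92.3% of the 26 called with the antibody, 77.4% of the 31 called without it and 51.1% of the 47. Over all 10289 genes, 4028 were called in the same direction and 10 in opposite ones, which is 83.2% of those called with the antibody, 71.7% of those called without it and 39.1% of those tested. Across the 47 genes, which are not independent replicates, the 2 effects had a Pearson r of 0.959 and a Spearman rho of 0.940, beside 0.926 and 0.884 across all genes tested. The interaction, the LPS effect with antibody minus that without it, called 0 members, where 0.00972% of all genes (1 gene) were called. At an unadjusted limma p under 0.05 there were 3 members of 47, where 13.6% of all genes had such a p, namely Ppt1 (-0.60 ± 0.18, limma adjusted p = 0.28), Lamp2 (-0.45 ± 0.17, 0.33) and Gusb (0.40 ± 0.16, 0.34). Without anti-CD36 replicate 1 it called Gaa and Sgsh, where 5.98% of all genes were called, and without replicate 2 Ppt1, where 2.30% were.

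In the direct comparison of LPS plus anti-CD36 with LPS, no member passed. At an unadjusted limma p under 0.05 there were 4 of 47, all lower, where 19.5% of all genes had such a p. Manba was at 5.98 and 6.08 with LPS plus anti-CD36, against 7.88 and 9.18 with LPS (-0.44 ± 0.12, limma adjusted p = 0.118), and Psap at 89.1 and 78.9, against 111 and 113 (-0.41 ± 0.12, limma adjusted p = 0.133). Atp6v1a differed by -0.29 ± 0.12 and Galc by -0.23 ± 0.10, and the libraries of the groups did not overlap for either gene. The libraries did not overlap for Manba and Psap, and both were called lower without either anti-CD36 library, fits that called 13.9% of all genes. The 95% intervals of the difference ran from -0.80 to 0.20 for Arsb, from -0.37 to 0.13 for Man2b1, from -0.08 to 0.68 for Ctsl and from -0.43 to 0.40 for Atp6v1h. For Tfeb, Tfe3 and Mcoln1 they ran from -0.02 to 0.48, -0.60 to 0.07 and -0.31 to 0.16. A fit on only these 4 libraries called 6 of 47 members, Ctsl higher and Ppt1, Atp6v1a, Arsb, Psap and Manba lower, where it called 22.4% of all genes.

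Antibody alone changed 1 member by the test. Galc was at 1.63 and 1.43 with anti-CD36, against 2.23 and 2.32 untreated (-0.38 ± 0.10, limma adjusted p = 0.043), and this call was lost under most other settings, for instance without either untreated library. At an unadjusted limma p under 0.05 there were 9 members of 47, where 31.2% of all genes had such a p. The anti-CD36 replicates differed more than those of other groups. The median absolute replicate difference of the members was 0.30 on the log2 scale with anti-CD36, against 0.09 with LPS plus anti-CD36, 0.06 with LPS and 0.10 untreated. With anti-CD36, 9 of 47 members (19.1%) differed by more than 0.5 between replicates, beside 22.0% of all genes, and 0 did in any other group.

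The replicates lay on either side of the untreated level in several genes. Ctsd was at 93.5 and 184 with anti-CD36, against 154 and 130 untreated, and Laptm5 at 378 and 221, against 288 and 300. Lamp1 was at 457 and 333, against 358 and 338, and Atp6v1h at 8.04 and 12.5, against 10.3 and 9.47. In each of these, 1 of the 2 antibody libraries was above both untreated libraries and the other below both. Without anti-CD36 replicate 1, 12 members were called against untreated (Ctsl, Atp6v1e1, Ctss and Cd63 higher, and Galc, Gaa, Sgsh, Atp6v0a1, Man2b1, Laptm5, Tfe3 and Arsb lower), where 36.3% of all genes were called. Without replicate 2, 8 were called (Atp6v0c, Atp6v1d, Lamp1 and Ppt1 higher, and Ctsd, Naglu, Atp6v1a and Manba lower), where 27.4% of all genes were. The part of the mitochondrial share of replicate 1 in this was not tested. LPS plus anti-CD36 against anti-CD36 called 28 members without replicate 1, with 52.0% of all genes called, and 34 without replicate 2, with 62.0%.

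**Figure D4:**
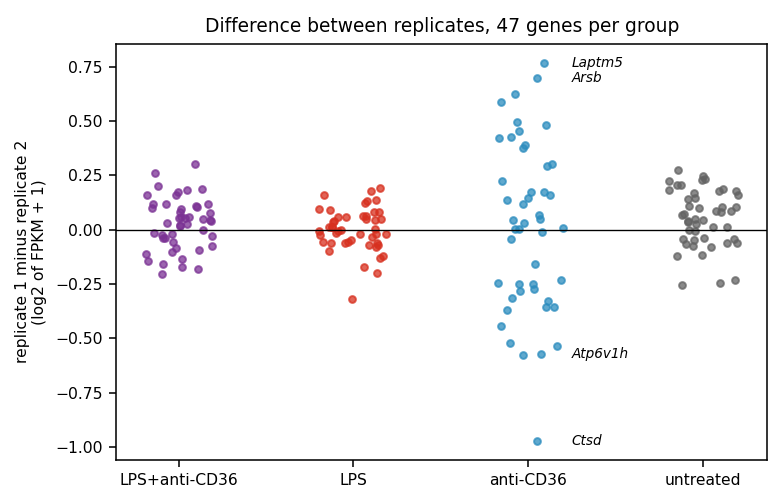
Difference between replicate 1 and replicate 2 of each gene (47 points per group) on the log2 scale of FPKM + 1. The anti-CD36 group spreads from 0.97 below 0 for Ctsd up to Laptm5 at the top, while no gene exceeds 0.32 in size in any other group.

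Other lysosomal genes, from lists of 119 symbols of which 100 were tested, showed a share of calls near that of all genes. With LPS against untreated cells 20 rose and 36 fell (median -0.14), beside 17.0% and 37.5% of all genes. With LPS plus anti-CD36 against untreated 18 rose and 36 fell, beside 17.3% and 41.8%. LPS plus anti-CD36 against anti-CD36 had 19 that rose and 26 that fell, beside 15.4% and 31.7%. Of 34 further hydrolases 17 fell (50%) and 5 rose (14.7%) with LPS. Prcp, a carboxypeptidase, averaged 3.73 ± 0.25 with LPS and 14.04 ± 0.38 untreated (SD, n = 2; log2 difference -1.67), Ctse -1.45, and Lgmn, the asparaginyl endopeptidase that matures cathepsins, 70.3 ± 0.57 against 193 ± 8.9 (-1.44). Acp5, the tartrate-resistant acid phosphatase, averaged 4.44 ± 0.35 with LPS and 0.372 ± 0.012 untreated (1.99).

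Of 26 further membrane proteins 5 rose (19.2%) and 8 fell (30.8%) with LPS, beside 17.0% and 37.5% of all genes. Slc15a3, a lysosomal carrier of histidine and peptides, averaged 116 ± 4.1 with LPS and 5.83 ± 0.015 untreated, a log2 difference of 4.10, and Mcoln2, a relative of Mcoln1, 19.6 ± 2.5 against 2.51 ± 0.43 (2.55). Tpcn1, an endolysosomal cation channel, fell by 1.73 and Slc29a3, a nucleoside transporter, by 1.00. Of 11 further pump subunits and assembly factors 3 rose (27.3%) and 1 fell (9.09%). The assembly factor Vma21 averaged 25.7 ± 1.6 with LPS and 8.94 ± 0.15 untreated (1.42), and Tcirg1, the a3 subunit, 85.9 ± 0.82 against 36.7 ± 0.34 (1.20), while Tmem199 rose by 0.57 and Atp6v0a2, the a2 subunit, fell by 0.83.

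Among 9 genes of enzyme delivery 5 fell (55.6%) and 2 rose (22.2%) with LPS, beside 37.5% and 17.0% of all genes. M6pr, the cation-dependent mannose 6-phosphate receptor, averaged 196 ± 1.2 with LPS and 92.3 ± 3.9 untreated (1.08), and Gnptab, which makes the mannose 6-phosphate tag, 12.7 ± 0.42 against 24.1 ± 2.2 (-0.87). Gga2, a sorting adaptor, fell by 1.19 and Nagpa, which uncovers the tag, by 0.76. Of 16 genes of nutrient control 3 rose (18.75%) and 5 fell (31.25%), led by Fnip1 (0.94), Mlst8 (-0.85), Rptor (-0.69) and Rragb (-0.68). Of 4 cathepsin inhibitors Cstb, cystatin B, rose by 1.18 and Serpinb6a by 0.58. The limma adjusted p of the genes named in these lists was at most 0.0353 (Tmem199).

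**Figure D5:**
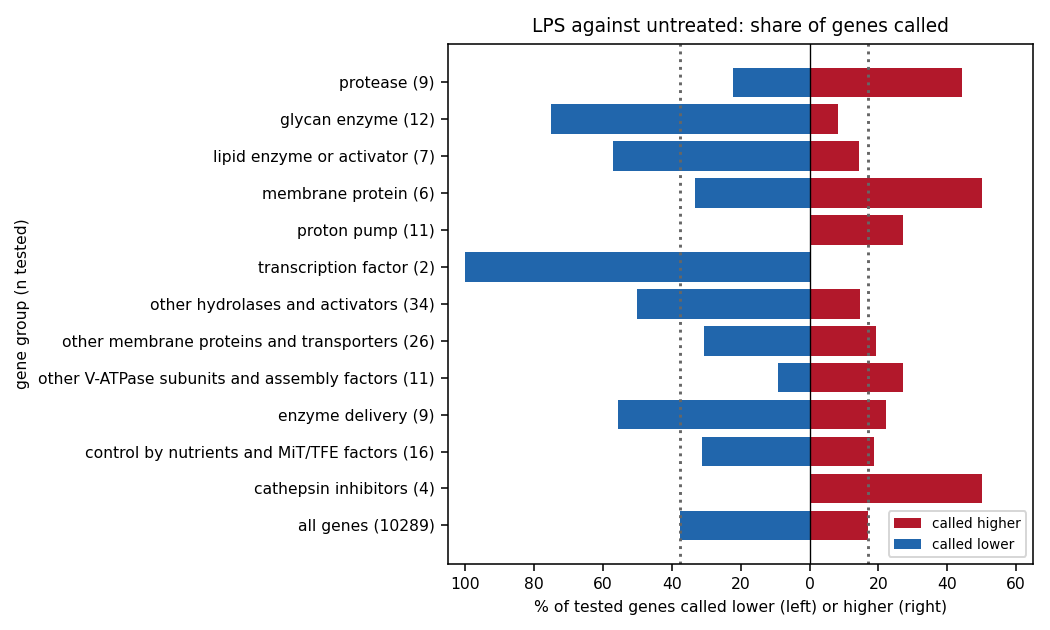
Share of tested genes called higher (right, red) or lower (left, blue) with LPS against untreated cells, by role of the 47 members, by list of other lysosomal genes, and for all 10289 genes (bottom bar and dotted lines, 17.0% higher and 37.5% lower). Of the glycan enzymes 9 of 12 are lower and of the proton pump 0 of 11 (1 with mitochondrial genes left out). The groups hold 2 to 34 genes, and no test compares them with all genes.

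For the antibody, 3 of the 100 other genes were called in LPS plus anti-CD36 against LPS, all lower. Of all genes 1.78% were called there, 1.42% lower. Hyal1, a hyaluronidase, averaged 0.681 ± 0.0022 with LPS plus anti-CD36 and 1.91 ± 0.29 with LPS (-0.79, limma adjusted p = 0.0347). Acp5 averaged 2.52 ± 0.49 and 4.44 ± 0.35 (-0.63, limma adjusted p = 0.0481), and Fnip2, a partner of folliculin, 9.32 ± 0.48 and 14.4 ± 0.76 (-0.57, limma adjusted p = 0.049). Anti-CD36 against untreated called 11 of 100, 1 higher (Serpinb6a, 0.55) and 10 lower, where 3.04% of all genes were called higher and 10.6% lower. The lower ones included Fnip2 (-0.89), Hyal1 (-0.88), Igf2r, the large mannose 6-phosphate receptor (-0.85), Mtor (-0.61), Atp6v0a2 (-0.60) and Npc1, the cholesterol exporter (-0.59). Hyal1 was at its lowest with LPS plus anti-CD36, next with LPS, then anti-CD36, at 3.03 ± 0.37, and highest untreated, at 6.43 ± 0.73.

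Markers of other cell types were low but moved with LPS. Fscn1, a dendritic cell marker, averaged 1.61 ± 0.11 with LPS and 0.0639 ± 0.014 untreated, and Lck and Cd79b were also called higher (0.84 each on the log2 scale), while Csf3r was not called. Summed, the 4 markers came to 12.4 and 11.4 with LPS plus anti-CD36, 9.49 and 10.5 with LPS, 6.85 and 5.69 with anti-CD36, and 6.14 and 6.403 untreated. None of the listed fibroblast, epithelial and endothelial markers was in the table. The part of these markers in the lysosomal differences was not tested.

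How reads were assigned where genes overlap is not given in the sources used here. In GENCODE M21, exons of other genes cover more than 10% of the exon length of 8 members, namely Arsb (39.9%), Ctsd (34.4%), Ctsl (26.8%), Sgsh (21.6%), Ctsa (17.4%), Ctsb (12.8%), Hexa (12.8%) and Atp6v0b (11.8%). How far reads of those genes entered these levels was not tested, and the levels are uncertain.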

How the data were processed

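Total RNA of 8 libraries was sequenced after a standard Illumina preparation, per the labels' protocols. A 10x Genomics entry also stands in the labels; since each gene has a single value per library, the data were handled as bulk sequencing. The authors deposited 1 table of FPKM values. The submitters' processing notes list HISAT2 2.0.5 and, as builds, hg38 and mm10. What hg38 was used for, how reads were counted, the annotation and strand use are not given in the sources used here. No gene is at 0 in any library of the table, so genes at 0 were not analysed here.

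Groups and replicates follow the labels. Nothing says that replicates were separate cultures, so the p-values cover spread that may be technical only. FPKM values are not counts. They were tested as log2(FPKM + 1) in limma 3.58.1 (R 4.3.3), a scale that understates changes of low genes, with 4 group means over 8 libraries, empirical Bayes with a trend (4 residual and 3.46 prior degrees of freedom) and Benjamini-Hochberg adjustment over 10289 genes. The script was tested on simulated data. Depth was recovered from FPKM steps of low genes. A floor of 3 reads in 2000 bp is an FPKM of 0.0209 to 0.0313, counting error only. Of the symbols, 10366 matched GENCODE M21 (GRCm38, as mm10), which gave coordinates. Promoters are RefSeq windows.

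The members and lists were chosen with earlier results of these data known. Named in each comparison were the 5 largest called rises and 5 largest called falls among members, Tfeb, Tfe3, Mcoln1 and each role's largest change, and up to 4 called genes with the largest differences per other list. Other members named, Lamp1's promoter and Hyal1's order over groups were chosen after values were seen. Alternatives tried were other pseudocounts, filters and scalings, leaving out the trend, each library or the groups not compared, a minimum log2 difference of 1 and a replicate block.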

Additional observations from a re-analysis of the deposited data

How the results depend on the processing

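The counts of members called by limma were 26, 30 and 31 for LPS plus anti-CD36 against anti-CD36, LPS plus anti-CD36 against untreated and LPS against untreated. Beside them, 47.1%, 59.1% and 54.6% of all genes were called. Requiring a log2 difference of at least 1 left 10, 10 and 10, because fewer genes can pass, and 13.5%, 19.2% and 16.6% of all genes. Fitting only the groups compared gave 17, 36 and 40, where 31.7%, 68.4% and 68.2% of all genes were called. It gave 6 for LPS plus anti-CD36 against LPS (0 in the fit of all libraries), where 22.4% of all genes were called. For anti-CD36 against untreated it gave 0 (1 in the fit of all libraries), where 0% of all genes were called. Pseudocounts, filters, scalings and the trend kept the 3 larger counts within 1.5 times, but scalings turned the balance of higher against lower calls. For anti-CD36 against untreated the count was 0 with a pseudocount of 0.1, a mean FPKM of at least 5, size factors, no trend or a log2 difference of at least 1, 2 with mitochondrial genes left out (Galc and Atp6v1a), and 1 with quantile normalization (Psap) or without the length trend (Lamp2, higher); the cause was not tested.

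Leaving out each library in turn gave 18 to 34 for LPS plus anti-CD36 against anti-CD36, 24 to 36 for LPS plus anti-CD36 against untreated and 19 to 39 for LPS against untreated, lowest without LPS replicate 1 (19) and untreated replicate 2 (20). It gave 0 to 2 for LPS plus anti-CD36 against LPS, 0 to 12 for anti-CD36 against untreated and 0 to 2 for the interaction, each highest without an anti-CD36 library. Left with 1 library, a group is assumed to vary like the others. The share of all genes called moved over these fits as well, and was highest where the member counts were highest. Through all 8 such fits, 16, 23 and 19 calls stayed in the first 3 comparisons.

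Differences of called genes and medians of the members gave 1863 values recomputed under an alternative, of which 1604 stayed the same. For a gene this means the same direction and side of the threshold, and for a median a shift smaller than the replicate spread. Another 230 were gene differences no longer past the threshold. The log2 difference of Ctsz, LPS against untreated, turned to -0.0386 under quantile normalization (0.45 as deposited). Nothing says whether replicate numbers pair the libraries. Same-numbered deviations correlated at -0.645 to 0.530 over 6 pairs of groups. These values cannot decide it, since the numbers may not follow the same order in each group. With a replicate block the counts were 0 for LPS plus anti-CD36 against LPS, 24 against anti-CD36, 28 against untreated, 29 for LPS against untreated, 0 for anti-CD36 against untreated and 0 for the interaction. In the same order it called 0.447%, 43.2%, 56.4%, 51.5%, 8.39% and 0.00972% of all genes. With 2 libraries a group, small differences could have been missed.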
